A study of Mus musculus with 6 samples.

Results

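The nuclear genes for the subunits of the mitochondrial respiratory chain and the ATP synthase were compared between c-kit-positive and c-kit-negative cells of the mouse embryo. The genes were chosen by name from the array's annotation. They were the Ndufa, Ndufb, Ndufc, Ndufs and Ndufv genes, Uqcr, Cox4i, Cox5, Cox6, Cox7, Cox8 and Atp5 genes, the Sdh genes (Sdha to Sdhd) and Cyc1, without the Ndufaf assembly factors. A gene was taken where a probe set (the group of probes that reads 1 transcript) carried that symbol alone, and of several probe sets for a gene the one brightest on average was used. This gave 83 of the 19937 genes measured, with 34 genes of complex I, 4 of complex II, 9 of complex III, 19 of complex IV and 17 of the ATP synthase, complex V.

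Complexes I and II take electrons from NADH and from succinate and pass them to coenzyme Q, complex III passes them on to cytochrome c, and complex IV, cytochrome c oxidase, hands them to oxygen. Complexes I, III and IV move protons across the inner mitochondrial membrane, and the ATP synthase uses their return to make ATP. Most subunits are nuclear-encoded and needed in nearly every cell, while several subunits of complex IV have isoforms known from heart and skeletal muscle, from testis or from cells short of oxygen. Blood stem cells of the adult are known for low use of this pathway.

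The cells came from E11.5 embryos of the CD1 mouse strain, an age given in embryonic days, and from the region that holds the aorta, the gonads and the mesonephros (AGM). Blood stem cells arise there in the wall of the aorta, and germ cells settle in the gonad. After collagenase digestion, CD31-positive cells that lacked CD45 and Ter119 were sorted, which selects endothelial and related cells over leukocytes and red cells. They were then split into c-kit-positive and c-kit-negative cells, with 3 arrays of each, where c-kit is the surface receptor that binds stem cell factor. No treatment or genotype differed between the groups. Replicates are biological by their labels, which give no number of embryos for each, so p-values measure the spread between these samples, which may be technical. The values are log2 intensities normalised with RMA, a method that corrects background, equalises the arrays and summarises probes. Array medians were between 5.42 and 5.52 in a range of 1.22 to 13.7. Precision is limited by the number of arrays.

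Kit, which encodes c-kit, stood at 9.59, 9.54 and 9.53 in c-kit-positive cells, against 8.27, 8.21 and 8.19 in c-kit-negative cells. Pecam1, which encodes CD31, differed by -0.90 (c-kit-positive minus c-kit-negative, log2), and Ptprc, which encodes CD45, by -0.24 with overlapping groups. Here rose and fell mean that a gene passed an adjusted p under 0.05 in the limma test described below. Over all genes 2.71% rose and 4.7% fell. All 15 pan-endothelial markers fell in c-kit-positive cells. The mean level of the list was 6.09 to 6.31 in c-kit-positive arrays and 8.62 to 8.72 in c-kit-negative arrays. Of 13 germ cell markers 11 rose and 0 fell, with a mean level of 7.78 to 8.08 in c-kit-positive arrays and 6.37 to 6.44 in c-kit-negative arrays. Of 10 haematopoietic progenitor markers 5 rose and 0 fell, with mean levels of 7.21 to 7.42 in c-kit-positive arrays and 6.42 to 6.57 in c-kit-negative arrays. Of 11 mesenchymal markers 7 fell, of 9 platelet markers 5 and of 12 macrophage markers 3, and 0 of these rose. Of 10 pan-leukocyte markers 2 rose and 0 fell, with mean levels of 8.48 to 8.69 in c-kit-positive arrays and 8.33 to 8.77 in c-kit-negative arrays. Of 9 erythroid markers 2 rose and 3 fell (the globins Hbb-y, Hba-x and Hbb-bh1). The pan-leukocyte markers stood, on average, above the array medians in both populations despite the sort. Which cells gave this signal was not tested. Markers of several cell types thus differed between the populations, and their part in the results that follow was not tested. In such bulk samples, fewer cells of a type and less RNA per cell cannot be told apart.

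Most subunit genes stood a little higher in c-kit-positive cells, and 3 rose by a tested amount. These were Cox7a1, the isoform of complex IV subunit 7a best known from heart and skeletal muscle, Cox6b2, the isoform of subunit 6b known from testis, and Ndufa7, an accessory subunit of complex I. No subunit gene fell. The test was limma's moderated test over all 19937 genes with Benjamini-Hochberg adjustment and a threshold of adjusted p under 0.05. The 3 genes that rose were 3.61% of the 83, where 2.71% of all genes rose, so the share of subunit genes that passed was near the background. The 0 that fell stood beside 4.7% of all genes. At an unadjusted p under 0.05, 19 subunit genes were higher and 0 lower, where 11.4% of all genes were higher and 9.69% lower.

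The difference was positive for 73 of the 83 subunit genes (88.0%), against 12177 of the 19937 genes measured (61.1%). After a further quantile normalization of the arrays it was positive for 66 of the 83, against 56.9% of all genes. Its median was 0.21 on the log2 scale, a 1.15-fold higher level, against 0.07 over all genes, and it ran from -0.49 for Ndufa4l2 to 1.64 for Cox7a1. For a single gene this shift was of the order of the error, since the median SE was 0.15. All 3 c-kit-positive arrays lay above all 3 c-kit-negative arrays for 26 of the 83 subunit genes (31.3%), where the share over all genes was 16.2%. The opposite order was found for 0 subunit genes, where the share over all genes was 10.6%, and for 2 after quantile normalization, where it was 11.55%. Without the 3 genes that passed, the median of the other 80 was 0.18. Without the 8 tissue or condition isoforms of complex IV, it was 0.17 over 75 genes, of which 66 had a positive difference and 1 rose. The subunit genes were brighter on average than the genes they are set beside. Their mean level per array was 9.21 to 9.64, against 5.91 to 5.94 over all genes. Without the dimmest 50 percent of genes, 70 of 79 subunit genes had a positive difference, against 56.7% of the genes kept. The medians were then 0.19 and 0.06. The list was described and not tested as a set.

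**Figure D1:**
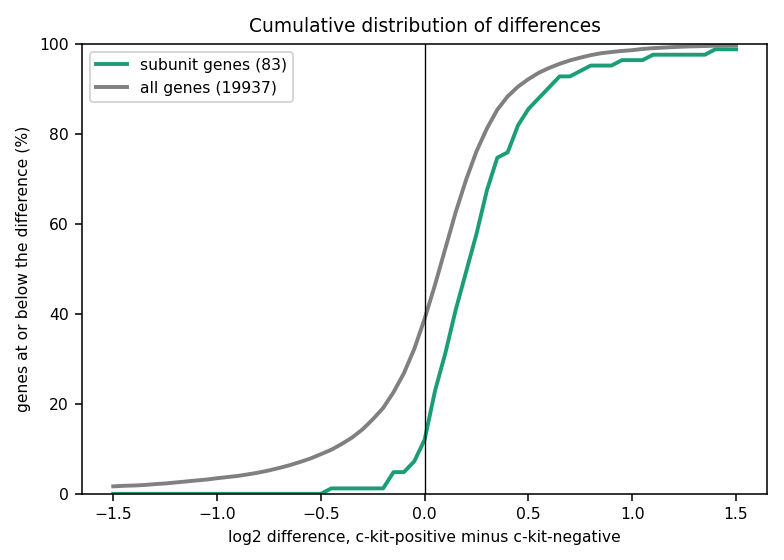
Cumulative share of genes (y axis, percent) at or below each difference between c-kit-positive and c-kit-negative cells (x axis, log2), for the 83 subunit genes in green and all 19937 genes in grey. The subunit curve lies to the right of the other, with medians of 0.21 and 0.07, and 12.05% of subunit genes but 38.9% of all genes lie at or below 0.

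The arrays of a group did not share the shift evenly. Relative to each gene's mean over the 6 arrays, the median deviation of the subunit genes was 0.09, 0.03 and 0.17 in c-kit-positive replicates 1, 2 and 3, against -0.11, -0.20 and -0.0009 in c-kit-negative replicates 1, 2 and 3. The groups did not overlap, but c-kit-negative replicate 3 stood close to c-kit-positive replicate 2. Over all genes the same medians were 0.04, 0.02 and 0.02 in c-kit-positive cells and -0.04, -0.03 and -0.03 in c-kit-negative cells. Leaving out c-kit-negative replicate 3 raised the number of subunit genes that rose to 5, by adding Atp5g1 and Ndufs7. Those 5 were 6.02% of the 83, beside 1.62% of all genes in that fit. Leaving out c-kit-positive replicate 1, c-kit-positive replicate 3, c-kit-negative replicate 1 or c-kit-negative replicate 2 left 2, since Cox6b2 no longer passed. Those 2 were 2.41% of the 83, beside 1.38% to 1.55% of all genes in these fits.

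**Figure D2:**
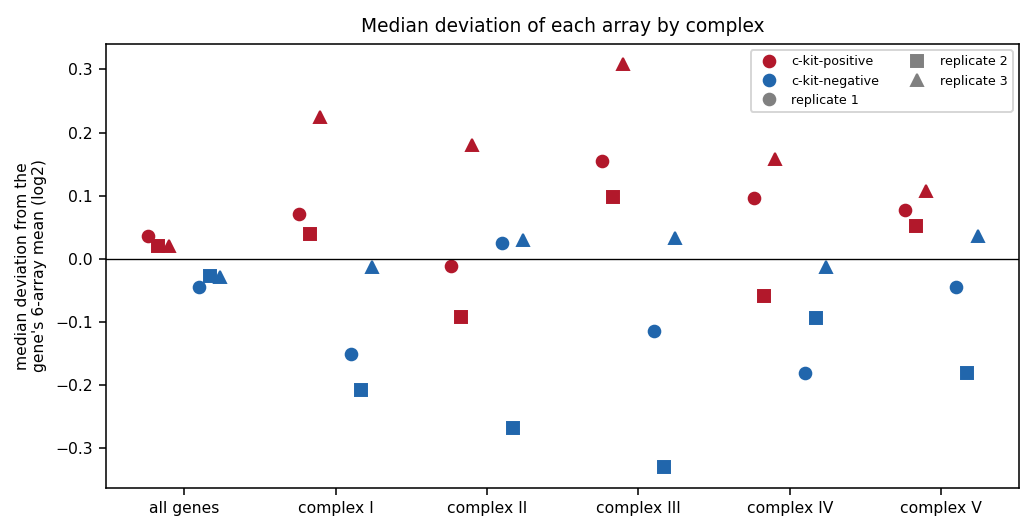
Median over genes of the deviation from each gene's mean of the 6 arrays (y axis, log2), for all genes and for the subunits of each complex (x axis), with c-kit-positive arrays in red left of c-kit-negative arrays in blue and symbols for replicates 1 to 3. In complex I and complex III every red point lies above every blue one, whereas in complexes II and IV the groups overlap and in complex V they nearly meet.

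In complex I, the NADH dehydrogenase, 1 of 34 genes rose (2.94%) and 0 fell, beside 2.71% and 4.7% of all genes. The share that rose was thus near that of all genes. A positive difference was seen for 30 (88.2%, beside 61.1% of all genes). All c-kit-positive arrays lay above all c-kit-negative ones for 11 (32.4%, beside 16.2%). The median difference was 0.21, and 9 genes were higher and 0 lower at an unadjusted p under 0.05, beside 11.4% and 9.69% of all genes. The gene that rose was Ndufa7 (probe set 10444041), an accessory subunit of the arm that lies in the mitochondrial matrix. Ndufa7 stood at 8.60, 8.76 and 8.66 in c-kit-positive cells, against 7.21, 7.81 and 7.73 in c-kit-negative cells. The groups lay well apart, and c-kit-negative replicate 1 was the lowest array. The difference was 1.09 ± 0.18 (SE, n = 3 each), or 2.13-fold, with an adjusted p of 0.00876 in limma. It passed without each of the 6 arrays in turn.

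The promoter of Ndufa7 is shown because this was the only one of the widely used subunits to pass. The 250 bases before its start lie at chr17:33824322-33824571 of GRCm38.p6, plus strand, in RefSeq's table, where the gene has 2 starts and the one farthest upstream was used. Capitals mark an E-box, CACGTG, 72 to 67 bases before the start.
Ndufa7: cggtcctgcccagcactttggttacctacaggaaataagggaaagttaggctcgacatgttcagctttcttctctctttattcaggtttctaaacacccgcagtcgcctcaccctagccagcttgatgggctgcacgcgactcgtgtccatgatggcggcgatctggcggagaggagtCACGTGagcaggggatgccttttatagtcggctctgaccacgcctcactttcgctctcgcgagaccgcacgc

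The catalytic core of complex I carries the flavin and iron-sulfur clusters that bring electrons from NADH to coenzyme Q. Of its 6 nuclear genes measured here 0 passed, 5 had a positive difference (61.1% of all genes had one), and the median difference was 0.26. At an unadjusted p under 0.05, 3 were higher, beside 11.4% of all genes. Ndufv1, which binds NADH and the flavin, stood at 8.67, 8.98 and 8.82 in c-kit-positive cells, against 8.39, 8.06 and 8.42 in c-kit-negative cells. The groups did not overlap, and the difference of 0.53 ± 0.16 had an adjusted p of 0.0875. Its partner Ndufv2 was at 9.22, 9.51 and 9.36 in c-kit-positive cells and 9.10, 8.90 and 8.88 in c-kit-negative cells, which gives a difference of 0.40 ± 0.14 with an adjusted p of 0.146. Ndufs7, which holds the last iron-sulfur cluster before coenzyme Q, was at 7.94, 8.01 and 8.28 in c-kit-positive cells and 7.33, 7.22 and 7.87 in c-kit-negative cells. Here too the groups did not overlap, though the highest c-kit-negative array came within 0.1 of the lowest c-kit-positive one, and the difference was 0.61 ± 0.20 with an adjusted p of 0.116. Ndufs1, the largest subunit, differed by 0.04, Ndufs3 by 0.11 and Ndufs8 by -0.16, all with overlapping groups.

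Among the 9 accessory genes of the matrix arm the median difference was 0.28 and 8 were positive. The groups did not overlap for 4 (44.4%, beside 16.2% of all genes with all c-kit-positive arrays above). Besides Ndufa7 these were Ndufs6 with a difference of 0.47 ± 0.15, Ndufa5 with 0.43 ± 0.14 and Ndufs4 with 0.25 ± 0.14. Ndufs6 and Ndufs4 are subunits whose loss is known to impair complex I in mice. Ndufa12 was the only negative member, at -0.03. The 18 accessory genes of the membrane arm differed by a median of 0.14, with 16 positive and 3 without overlap (Ndufa11, Ndufb6 and Ndufb11). Those 3 were 16.7% of the 18, near the 16.2% of all genes. The range of the 18 ran from -0.20 for Ndufa8 to 0.62 for Ndufa13, and 0 passed. At an unadjusted p under 0.05, 2 were higher, beside 11.4% of all genes.

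Ndufab1, the mitochondrial acyl carrier protein that is both a subunit and part of fatty acid synthesis, stood at 9.30, 8.85 and 9.41 in c-kit-positive cells, against 8.09, 8.63 and 8.62 in c-kit-negative cells. The groups did not overlap, the difference was 0.74 ± 0.21 and the adjusted p was 0.0765. Its other probe set differed by 0.90. The brightest probe set of complex I was that of Ndufc2, at 11.44, 11.40 and 11.59 in c-kit-positive cells and 11.42, 11.38 and 11.44 in c-kit-negative cells. The dimmest was that of Ndufb2, at 7.68, 7.36 and 7.77 in c-kit-positive cells and 7.26, 7.32 and 7.41 in c-kit-negative cells. Brightness depends on the probes, so this order is not one of transcript amounts. Neither gene passed, with differences of 0.06 and 0.27.

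**Figure D3:**
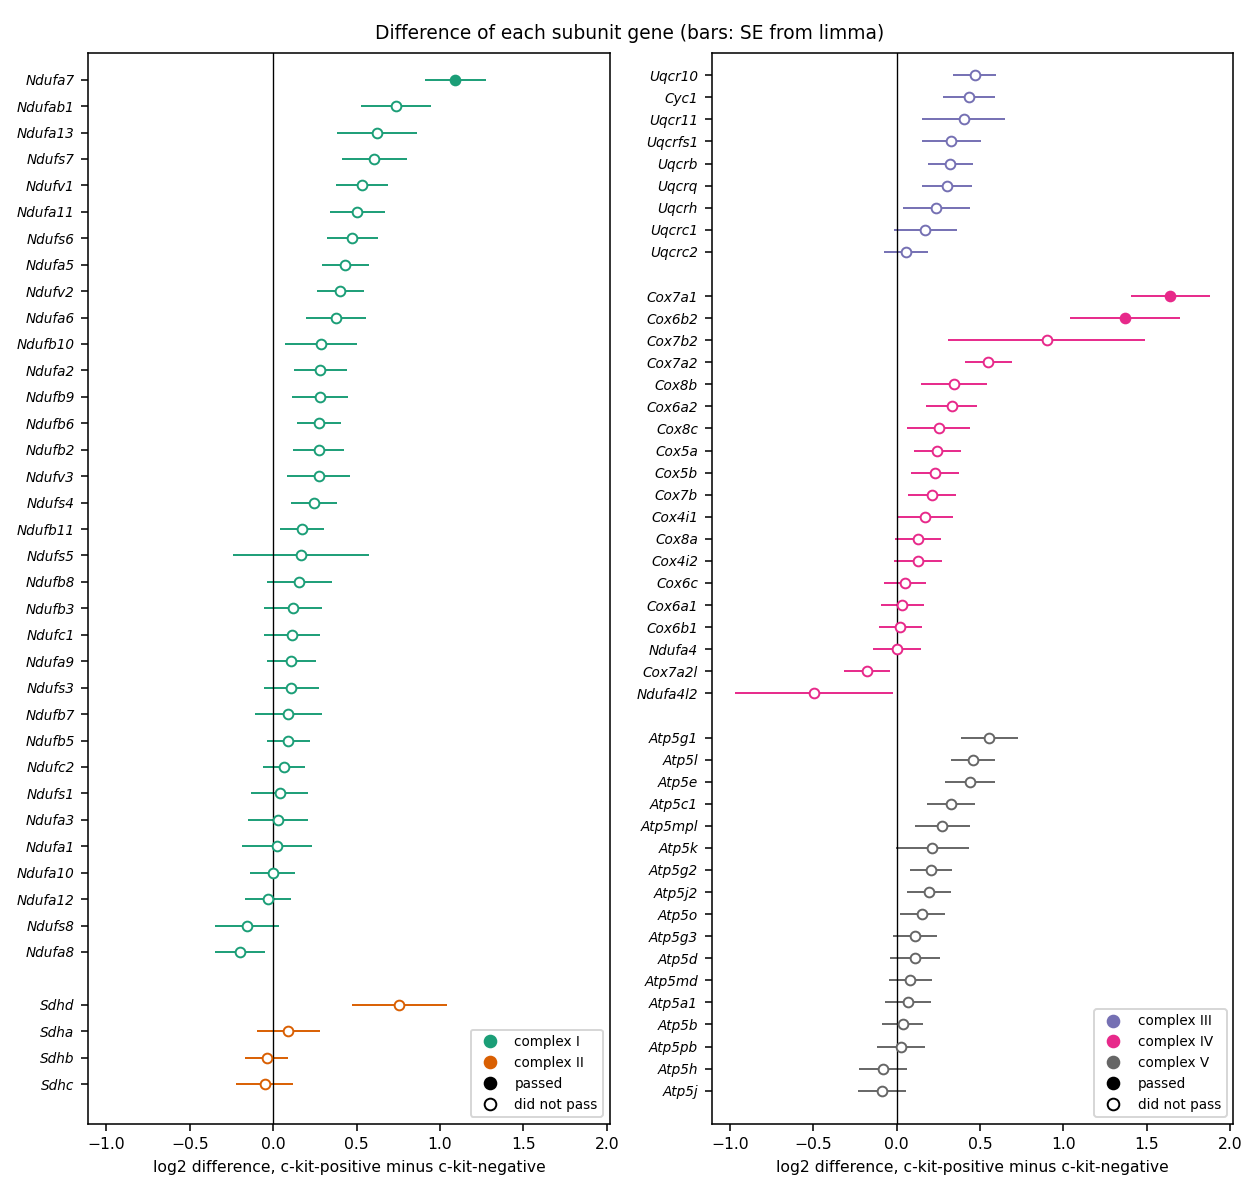
Difference of each of the 83 subunit genes (x axis, log2, c-kit-positive minus c-kit-negative), by complex, with bars of 1 SE from limma and filled points for the 3 genes that passed at adjusted p under 0.05. Most points lie right of 0, those of complex III all do, and Cox7a1, Cox6b2 and Ndufa7 lie beyond 1.

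Complex II, succinate dehydrogenase, is the enzyme of the tricarboxylic acid cycle that also feeds the chain, and all 4 of its genes were measured. None passed in limma, and the median difference was 0.03, or -0.02 after quantile normalization. At an unadjusted p under 0.05, 1 was higher and 0 lower, beside 11.4% and 9.69% of all genes. Sdhd, which encodes a membrane anchor, was at 7.77, 7.75 and 8.85 in c-kit-positive cells, against 7.36, 7.22 and 7.52 in c-kit-negative cells. The groups did not overlap, but c-kit-positive replicate 3 stood far above the others, and the difference of 0.75 ± 0.28 had an adjusted p of 0.17. Without c-kit-positive replicate 3 it was 0.39. The other anchor, Sdhc, was at 9.05, 9.23 and 9.58 in c-kit-positive cells and 9.40, 9.17 and 9.43 in c-kit-negative cells, which gives a difference of -0.05. The flavoprotein Sdha differed by 0.09 and the iron-sulfur protein Sdhb by -0.04, and the groups overlapped for all 3.

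Complex III was the complex in which every measured gene had a positive difference. These were 9 of 9, beside 88.0% of all subunit genes and 61.1% of all genes. The differences ran from 0.06 for Uqcrc2 to 0.47 for Uqcr10, with a median of 0.32. All 9 were also positive under both other scalings tried, median centring and quantile normalization. None passed in limma, while 3 were higher at an unadjusted p under 0.05 and 0 lower, beside 11.4% and 9.69% of all genes. Uqcr10, a small subunit, was at 9.31, 9.35 and 9.38 in c-kit-positive cells, against 8.995, 8.78 and 8.85 in c-kit-negative cells. The groups were tight and did not overlap, yet the difference of 0.47 ± 0.13 (1.38-fold) had an adjusted p of 0.0708. Cyc1, the cytochrome that hands electrons to cytochrome c, was at 9.26, 9.04 and 9.41 in c-kit-positive cells and 8.90, 8.61 and 8.90 in c-kit-negative cells, which gives a difference of 0.43 ± 0.16 with an adjusted p of 0.154. The Rieske iron-sulfur protein Uqcrfs1, the dimmest probe set of the complex, was at 8.53, 8.13 and 8.004 in c-kit-positive cells and 7.97, 7.70 and 8.02 in c-kit-negative cells, which gives a difference of 0.33 with 1 c-kit-negative array inside the c-kit-positive range.

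The small subunit Uqcrb had a difference of 0.32 without overlap, and its 2 other probe sets differed by 0.33 and -0.04. The brightest probe set, that of Uqcrh, was at 11.37, 11.03 and 11.61 in c-kit-positive cells and 10.99, 10.90 and 11.40 in c-kit-negative cells, with overlapping groups. Uqcrq differed by 0.30 and Uqcr11 by 0.40, and c-kit-negative replicate 3 reached the c-kit-positive range for both. The core proteins Uqcrc1 and Uqcrc2, which build the part of the complex in the matrix, differed by 0.17 and 0.06.

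In complex IV, 2 of 19 genes rose (10.5%) and 0 fell, beside 2.71% and 4.7% of all genes. Both that rose were tissue isoforms. The 10 widely expressed subunits all had a positive difference, beside 61.1% of all genes. Their median was 0.15, with a range from 0.0007 for Ndufa4 to 0.55 for Cox7a2. Of these 10, 0 passed, and 1 was higher at an unadjusted p under 0.05, beside 11.4% of all genes. After quantile normalization Cox6a1, Cox6b1, Cox6c and Ndufa4 turned negative, and 6 of the 10 remained positive. The 8 tissue or condition isoforms had a median of 0.34, 7 were positive under each of these scalings and 2 rose. A tissue form takes the place of the widely expressed form of the same subunit in the enzyme, so both are described together.

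Cox7a1 (probe set 10551836) was at 9.33, 8.45 and 8.70 in c-kit-positive cells, against 6.93, 7.26 and 7.38 in c-kit-negative cells. The groups lay over 1 log2 unit apart. The difference was 1.64 ± 0.24 (SE, n = 3 each), 3.11-fold, with an adjusted p of 0.0045 in limma, and it passed without each array in turn. Cox7a2, the widely expressed form of the same subunit, was at 10.36, 10.33 and 10.47 in c-kit-positive cells, against 9.73, 9.77 and 10.01 in c-kit-negative cells. Every c-kit-positive array was above every c-kit-negative one, and the difference of 0.55 ± 0.14 (1.46-fold) missed the threshold with an adjusted p of 0.0509. Cox7a2l, a relative of subunit 7a that joins complexes III and IV into supercomplexes, was at 9.74, 9.58 and 9.55 in c-kit-positive cells and 9.83, 9.66 and 9.91 in c-kit-negative cells. Its difference was -0.18, its other probe set differed by -0.21, and the groups overlapped.

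Cox6b2 (probe set 10559649) was at 9.58, 8.86 and 9.45 in c-kit-positive cells, against 7.22, 8.01 and 8.55 in c-kit-negative cells. Groups were separate, but the c-kit-negative arrays were spread over more than 1 log2 unit. The difference was 1.37 ± 0.33 (SE, n = 3 each), 2.59-fold, with an adjusted p of 0.0433 in limma. It no longer passed without c-kit-positive replicate 1 (adjusted p of 0.135), c-kit-positive replicate 3 (0.122), c-kit-negative replicate 1 (0.0856) or c-kit-negative replicate 2 (0.0993). Cox6b1, the widely expressed form and the brightest probe set of all 83, was at 12.39, 12.19 and 12.33 in c-kit-positive cells, against 12.29, 12.27 and 12.28 in c-kit-negative cells. Its groups overlapped and it differed by 0.02 ± 0.13, although values this bright lie near the top of the array's range.

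The isoform pairs are given with their promoters, so that the widely expressed form can be read beside the tissue form. Each run is the 250 bases before the start in RefSeq's table for GRCm38.p6, read in the direction of the gene, at chr7:30183921-30184170 (plus strand), chr9:79759854-79760103 (minus), chr7:4753095-4753344 (minus) and chr7:30626115-30626364 (minus). Capitals mark the CCAAT box, CCAAT or ATTGG on the other strand.
Cox7a1: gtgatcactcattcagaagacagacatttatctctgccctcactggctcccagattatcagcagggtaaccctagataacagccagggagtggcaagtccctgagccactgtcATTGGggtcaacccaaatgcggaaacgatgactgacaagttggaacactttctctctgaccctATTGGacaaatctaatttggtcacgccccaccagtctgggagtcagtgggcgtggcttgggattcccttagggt
Cox7a2: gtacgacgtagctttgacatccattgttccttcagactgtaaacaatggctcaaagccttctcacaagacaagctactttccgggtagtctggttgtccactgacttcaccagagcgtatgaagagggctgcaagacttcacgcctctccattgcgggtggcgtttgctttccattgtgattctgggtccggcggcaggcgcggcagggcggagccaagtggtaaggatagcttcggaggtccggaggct
Cox6b2: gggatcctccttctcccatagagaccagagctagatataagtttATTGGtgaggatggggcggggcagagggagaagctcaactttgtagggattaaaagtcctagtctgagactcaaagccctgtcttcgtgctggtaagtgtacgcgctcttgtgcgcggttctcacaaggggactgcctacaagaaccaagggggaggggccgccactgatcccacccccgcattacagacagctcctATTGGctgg
Cox6b1: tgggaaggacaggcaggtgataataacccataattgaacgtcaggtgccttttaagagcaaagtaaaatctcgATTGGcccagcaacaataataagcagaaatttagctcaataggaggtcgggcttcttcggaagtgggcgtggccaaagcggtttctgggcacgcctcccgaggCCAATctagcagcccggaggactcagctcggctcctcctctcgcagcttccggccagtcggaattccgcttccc
Cox7a1, Cox6b2 and Cox6b1 each held 2 CCAAT boxes in this window, and none of the 6 motifs searched was found in that of Cox7a2. The box is common, found at any start of 43.3% of the subunit genes and 37.5% of all genes of RefSeq's table.

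The other tissue or condition isoforms were dim and did not pass. Nor did the widely expressed forms of the same subunits, Cox4i1, Cox6a1, Cox7b and Cox8a, which differed by 0.17, 0.03, 0.21 and 0.13, all with overlapping groups. Cox6a2, another form of heart and skeletal muscle, was at 5.95, 5.72 and 6.16 in c-kit-positive cells, against 5.56, 5.61 and 5.67 in c-kit-negative cells. No overlap was seen, and the difference of 0.33 ± 0.15 had an adjusted p of 0.259. Cox8b, also of muscle, was at 5.13, 4.40 and 4.63 in c-kit-positive cells and 4.25, 4.49 and 4.39 in c-kit-negative cells, with overlapping groups. Of 10 skeletal and cardiac muscle markers 0 rose and 3 fell, beside 2.71% and 4.7% of all genes. Mean levels of these markers were 5.70 to 5.80 in c-kit-positive arrays and 6.04 to 6.17 in c-kit-negative arrays. The part of muscle cells in the values of Cox6a2, Cox8b and Cox7a1 was not tested.

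The testis forms Cox7b2 and Cox8c were near the bottom of the scale. Cox7b2, the dimmest probe set of the 83, was at 4.29, 3.90 and 6.45 in c-kit-positive cells, against 3.60, 3.87 and 4.47 in c-kit-negative cells. One array, c-kit-positive replicate 3, stood apart, and the difference of 0.90 ± 0.59 had an adjusted p of 0.441. Cox8c was at 5.04, 4.87 and 5.54 in c-kit-positive cells and 4.84, 5.01 and 4.84 in c-kit-negative cells, which gives a difference of 0.25. Among the forms linked to low oxygen, Cox4i2 was at 5.70, 5.95 and 5.98 in c-kit-positive cells and 5.61, 5.83 and 5.82 in c-kit-negative cells, and its groups overlapped. Ndufa4l2 was at 5.32, 5.27 and 5.40 in c-kit-positive cells and 4.99, 7.13 and 5.35 in c-kit-negative cells, so that its difference of -0.49 ± 0.47 followed c-kit-negative replicate 2. Ndufa4, its widely expressed counterpart and now counted as a subunit of complex IV, differed by 0.0007 ± 0.14. The table holds no detection calls, so none of these dim genes is called absent.

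**Figure D4:**
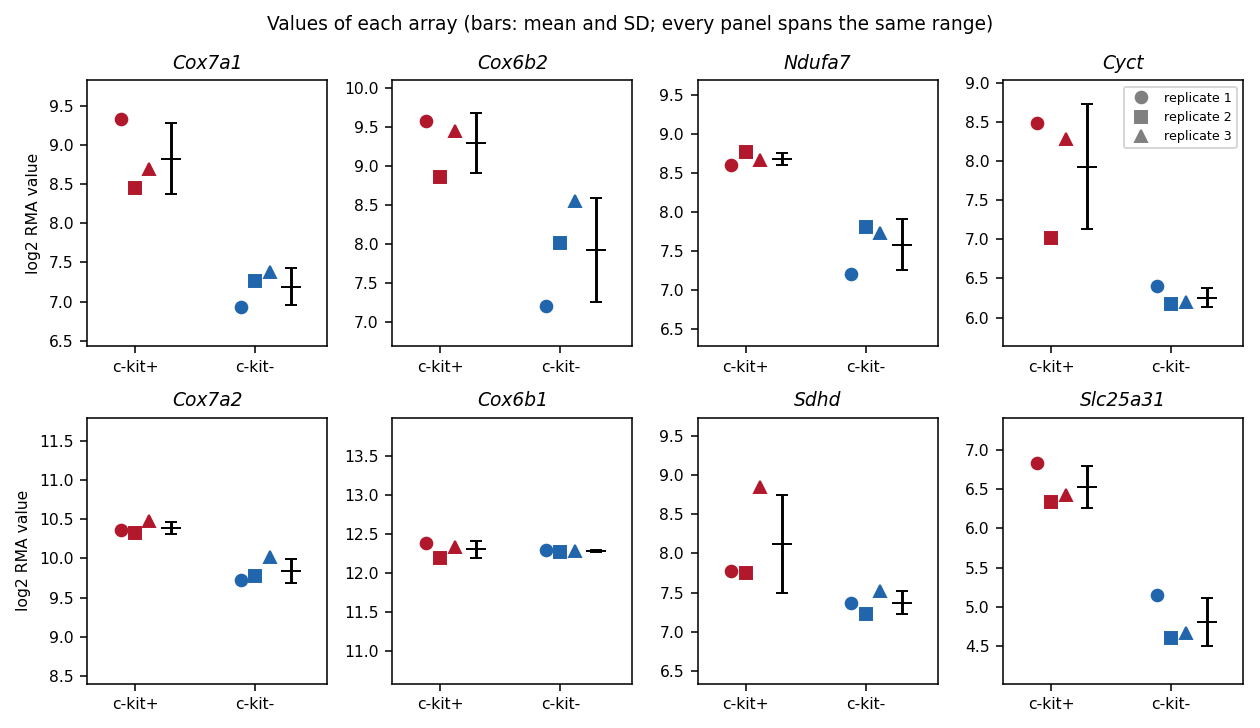
Log2 values of each array (y axis) for 6 subunit genes and for Cyct and Slc25a31, with c-kit-positive arrays in red left of c-kit-negative arrays in blue and bars for mean and SD (n = 3). Each panel spans an equal range, so that the gaps of Cox7a1 (1.64), Cox6b2 (1.37) and Ndufa7 (1.09) can be set beside those of Cox7a2 (0.55) and Cox6b1 (0.02).

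In complex V, 0 of 17 genes passed in limma, where 2.71% of all genes rose and 4.7% fell. A positive difference was seen for 15 (88.2%, beside 61.1% of all genes). All c-kit-positive arrays lay above all c-kit-negative ones for 6 (35.3%, beside 16.2%). The median difference was 0.16. At an unadjusted p under 0.05, 3 genes were higher and 0 lower, beside 11.4% and 9.69% of all genes. The gene of smallest p was Atp5l, subunit g of the membrane part, at 9.87, 9.92 and 10.05 in c-kit-positive cells, against 9.54, 9.39 and 9.54 in c-kit-negative cells. Its groups did not overlap, and the difference was 0.46 ± 0.13 (1.37-fold) with an adjusted p of 0.0797. Of its 4 other probe sets 3 differed by 0.48, 0.53 and 0.59. The fourth, at 7.41, 6.71 and 7.69 in c-kit-positive cells and 8.29, 9.53 and 7.53 in c-kit-negative cells, differed by -1.18, so that the probe sets of this gene disagree.

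The c-ring, the rotor that protons turn, is built from 1 protein encoded by 3 genes. Atp5g1 was at 9.68, 9.82 and 9.74 in c-kit-positive cells, against 8.96, 9.09 and 9.53 in c-kit-negative cells. There was again no overlap, the difference was 0.56 ± 0.17 and the adjusted p was 0.1, while its other, dim probe set differed by -0.02. Atp5g2 differed by 0.21 ± 0.13 without overlap, and by 0.48 on both of its other probe sets. Atp5g3 differed by 0.11 with overlapping groups.

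The 5 genes of the catalytic F1 part were all positive, beside 61.1% of all genes. Their median was 0.11, although Atp5b turned negative after quantile normalization. The catalytic subunits themselves, Atp5a1 and Atp5b, differed by 0.07 and 0.04, while Atp5e differed by 0.44 ± 0.15 and Atp5c1, the central shaft, by 0.33 ± 0.14, both without overlap. Atp5d, the dimmest probe set of the complex, was at 9.02, 9.09 and 9.23 in c-kit-positive cells and 9.09, 8.78 and 9.15 in c-kit-negative cells. The peripheral stalk, which holds F1 still, had 2 of 4 genes on each side of 0 (1 positive after quantile normalization, without Atp5pb), from -0.09 for Atp5j to 0.16 for Atp5o, with overlapping groups for Atp5j, Atp5h, Atp5pb and Atp5o. The brightest probe set was that of Atp5j2, at 12.24, 12.04 and 12.16 in c-kit-positive cells and 11.95, 11.85 and 12.06 in c-kit-negative cells, with overlapping groups.

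Of the 83 genes, 17 had more than 1 probe set. Their 24 other probe sets had the sign of the one used in 18 cases and the opposite sign in 6, each in a different gene (Atp5g1, Atp5h, Atp5l, Atp5md, Ndufc1 and Uqcrb). A further 6 probe sets named a subunit together with another gene (Cox7c, Ndufb4 and Ndufs5 with a near copy) and were left out, so that Cox7c and Ndufb4 were not analysed here. Subunit genes have many processed copies in the mouse genome, and probes cannot always tell a gene from its copy. Values of single probe sets carry that uncertainty.

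The partners of the complexes were described from lists of genes by role. Over all genes, 2.71% rose, 4.7% fell and 61.1% were positive. Of 20 assembly factors of complex IV, 1 rose, 0 fell and 14 were positive, with a median difference of 0.24. The one that rose was Lrpprc, which stabilises mitochondrial messenger RNAs, among them those of complex IV, at 9.26, 9.42 and 9.42 in c-kit-positive cells, against 8.81, 8.68 and 8.75 in c-kit-negative cells. Every c-kit-positive array was above every c-kit-negative one, and the difference was 0.62 ± 0.13 with an adjusted p of 0.024. It missed the threshold without c-kit-positive replicate 2 (adjusted p of 0.0755) or replicate 3 (0.0712) and without c-kit-negative replicate 1 (0.0608), 2 (0.0787) or 3 (0.0697). Of 5 assembly factors of the ATP synthase Fmc1 rose, by 0.56 ± 0.14 with an adjusted p of 0.0462. That call was lost without each of the 6 arrays in turn, with adjusted p between 0.0659 and 0.15. Of 17 assembly factors of complex I, 4 of complex II and 6 of complex III, 0 passed in limma. At an unadjusted p under 0.05, 3, 1 and 1 were higher, with 1 of complex III lower, beside 11.4% and 9.69% of all genes. The median differences of these 3 lists were 0.10, 0.09 and -0.05.

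Cytochrome c, which carries electrons from complex III to complex IV, has a widely expressed and a testis form. The testis form Cyct was at 8.49, 7.01 and 8.28 in c-kit-positive cells, against 6.40, 6.18 and 6.19 in c-kit-negative cells. There was no overlap, although c-kit-positive replicate 2 stood well below the other two, and the difference was 1.67 ± 0.35 (3.19-fold) with an adjusted p of 0.0236. It missed the threshold without any 1 of the 3 c-kit-negative arrays, or without c-kit-positive replicate 1 or 3, with adjusted p from 0.0604 to 0.0791. The widely expressed form Cycs was at 10.97, 11.02 and 11.09 in c-kit-positive cells and 10.88, 10.73 and 10.83 in c-kit-negative cells, which gives a difference of 0.21 with an adjusted p of 0.401. The carriers that exchange ADP for ATP showed a like contrast. Slc25a31, the form of male germ cells, was at 6.83, 6.33 and 6.42 in c-kit-positive cells, against 5.15, 4.60 and 4.66 in c-kit-negative cells. It rose by 1.73 ± 0.20 (3.31-fold) with an adjusted p of 0.00166, and passed without each array in turn but not without variance moderation (adjusted p of 0.068), whereas Slc25a4 differed by 0.11 and Slc25a5 by -0.20. Germ cell markers (11 of 13 higher) and haematopoietic progenitor markers (5 of 10 higher) rose in the same arrays as Cox6b2, Cyct and Slc25a31. The part of either cell type in these results was not tested.

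Another list held 15 measured proteins of electron transport and ATP synthesis, 4 of which are among the 83 subunits (Atp5md, Atp5mpl, Cox7a2l and Ndufa4). Among them Higd1a, which binds complex IV, rose by 0.63 ± 0.15 with an adjusted p of 0.044. Its other probe set, the more variable of its pair, differed by 0.03. Nnt, the transhydrogenase of the inner membrane that makes NADPH, was the only one of them to fall, with 7.06, 7.15 and 7.55 in c-kit-positive cells against 8.04, 7.84 and 7.98 in c-kit-negative cells. Its difference was -0.70 ± 0.16 with an adjusted p of 0.0394. Higd1a passed only without c-kit-negative replicate 3 among the 6 reduced fits (adjusted p up to 0.141 in the others), and Nnt only without c-kit-positive replicate 3 (up to 0.125). Of the mitochondrially encoded subunits 2 were measured, ND3 at -0.10 and COX2 at -0.02 (above 0 with median centring), both with overlapping groups.

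Pathways that feed and build the chain were set beside all genes, of which 61.1% had a positive difference, with a median of 0.07, and 11.4% were higher and 9.69% lower at an unadjusted p under 0.05. Of 19 genes of the tricarboxylic acid cycle and pyruvate dehydrogenase 0 passed, 14 were positive (73.7%) and 7 were higher and 0 lower at that p, with a median difference of 0.23. All 12 genes of coenzyme Q synthesis were positive under each scaling, with a median of 0.28, and 0 passed, with 1 higher and 0 lower at that p. Of 18 genes of mitochondrial biogenesis and mitochondrial DNA expression 0 passed, 14 were positive (77.8%), 9 were higher and 0 lower at that p, and the median was 0.33. Tfam, which packages and transcribes mitochondrial DNA, was at 7.65, 7.49 and 7.83 in c-kit-positive cells, against 7.30, 6.93 and 6.79 in c-kit-negative cells, with a difference of 0.65 and an adjusted p of 0.0634. Ppargc1a, a coactivator of mitochondrial genes in muscle and brown fat, was at 4.06, 3.89 and 3.77 in c-kit-positive cells and 4.89, 3.84 and 4.79 in c-kit-negative cells, with overlapping groups. Of 13 carriers and porins 1 rose, Slc25a31, 0 fell, 8 were positive (61.5%) and their median was 0.06.

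Of 17 regulators and targets of the hypoxia response 3 fell (17.6%) and 0 rose, beside 4.7% and 2.71% of all genes. There were 9 positive and 8 negative differences, with a median of 0.07. At an unadjusted p under 0.05, 3 were higher (Egln3 at 0.83, Lonp1 at 0.52 and Kdm3a at 0.44) and 4 lower. Over all genes these shares were 11.4% and 9.69%. Epas1, the oxygen-regulated factor HIF-2α and a gene strongly used in endothelium, was at 7.50, 6.38 and 6.20 in c-kit-positive cells, against 8.61, 8.73 and 8.69 in c-kit-negative cells. Slc2a1, the glucose transporter GLUT1, was at 8.20, 8.69 and 8.81 in c-kit-positive cells and 9.85, 9.86 and 9.997 in c-kit-negative cells. The groups lay apart for both, with differences of -1.99 ± 0.31 (adjusted p of 0.00633) and -1.33 ± 0.18 (adjusted p of 0.00326). P4ha1, a collagen prolyl hydroxylase, fell by 1.11 on the log2 scale with an adjusted p of 0.016, and missed the threshold without c-kit-positive replicate 1 (0.0585) or replicate 3 (0.0576). The 15 endothelial markers fell in the same arrays, and their part in this result was not tested.

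Short motifs of factors known to act on subunit genes were counted in the 250 bases before the start of the 67 subunit genes and 27025 genes in all that RefSeq's table holds, on both strands. A gene with several starts was counted once, if any of them had a match. The NRF1 motif GCATGCGC was found for 8 subunit genes (11.9%), against 2.56% of all genes of that table. They were Atp5g2, Atp5k, Atp5l, Cox6a1, Ndufa6, Ndufa8, Ndufa11 and Sdhb, and none of the 3 genes that rose was among them. The cyclic AMP response element TGACGTCA was found in 4 (5.97%), against 1.77%, and the E-box CACGTG in 6 (8.96%), against 6.86%. The ETS motif CCGGAAGT was found in 3 (4.48%), against 3.23%, and the YY1 motif AAGATGGC in 1 (1.49%), against 1.83%. The motifs do not contain one another as searched, the sequence of the promoters takes no part in the expression values, and a match is a description of letters and not of binding.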

How the data were processed

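Total RNA of 6 sorted samples was measured with 1 array each. Per the labels' protocols, 5 ng of RNA was amplified (NuGEN Ovation Pico) and labelled with biotin, which can distort ratios between transcripts. The deposited values are log2 values from RMA, per the submitters' processing notes. The version is not given in the sources used here. Of 34760 probe sets, 21640 had 1 gene symbol, 1321 had several and 11799 were not listed in the platform annotation. Those with 1 symbol covered 19937 genes, 83 of them subunits (107 probe sets). By Entrez identifier, 21553 of the 21640 were found in the reference gene table.

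Groups came from the labels. limma 3.58.1 in R 4.3.3 was run on all genes (two-sided, no filter, no block), with Benjamini-Hochberg adjustment and a threshold of 0.05. It was tested on simulated data. With 3 arrays against 3, an exact permutation test cannot give a p below 0.1, so none was run. Named were, per complex and direction, up to 6 genes past the threshold, or the one of smallest p, the brightest and dimmest probe set, the isoforms, and up to 4 passing genes per pathway list. Other subunits and partner genes that are named were chosen as examples after their values were seen. The members, the lists and the 6 motifs were chosen with earlier results of these data known. Motifs were searched in RefSeq's promoter table (GRCm38.p6). No genome or protein table was used here.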

Additional observations from a re-analysis of the deposited data

How the results depend on the processing

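The number of subunit genes that rose was 3. It was 5 (6.02%) with an intensity trend and a robust prior, which added Cox7a2 and Atp5l, beside 2.89% of all genes. At an adjusted p under 0.1 it was 8 (9.64%), beside 4.92%. In a linear model without variance moderation it was 0. That model called 66 genes higher and 216 lower in all, against 540 and 937 with moderation. Without 1 array at a time the number of subunit genes that rose was 2 to 5, beside 1.38% to 1.85% of all genes. Under the other alternatives it was 2 to 4. Among these was the fit without the dimmest 50 percent, with 4 of 79 (5.06%) beside 5.70% of the genes kept. Under any of the 18, 0 subunit genes fell. The median difference was 0.14 to 0.25, lowest without c-kit-positive replicate 3 and under a further quantile normalization. Positive differences numbered 65 to 74, and 66 of 83 after that quantile normalization, against 56.9% of all genes. The count of subunit genes without overlap was also taken under alternatives chosen after seeing the data. With median centring it was 32 (38.6%, against 18.2% of all genes). With quantile normalization it was 25 (30.1%, against 14.8%), and 2 the other way, against 11.55%. Without the dimmest 50 percent of genes it was 26 of 79 (32.9%, against 18.8%). Atp5l reversed to -1.18 with its probe set of highest variance, and Ptprc ran from -0.51 to 0.087 without 1 array at a time, above 0 without c-kit-negative replicate 1. Over 16 alternatives Cox7a1 and Ndufa7 missed the threshold once each (adjusted p of 0.106 without moderation) and Cox6b2 in 5, and Lrpprc missed it in 6 and Fmc1, Nnt and Higd1a in 9, 9 and 10. The labels do not say whether a replicate number pairs the samples. Over all genes, the deviations of same-numbered arrays had correlations of 0.0007, 0.0239 and 0.059, which cannot decide this. The replicate block on these numbers gave 3 subunit genes higher and 0 lower, and 476 and 879 genes in all. With it, Lrpprc, Fmc1, Higd1a and Nnt missed the threshold (adjusted p of 0.0602, 0.0715, 0.0624 and 0.0577). Without moderation Slc25a31, Cyct, Epas1, Slc2a1 and P4ha1 missed the threshold as well (adjusted p of 0.068, 0.202, 0.131, 0.0758 and 0.146). With 3 arrays a group, differences of the size of the median could not be told from the spread for single genes.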
